A study of Homo sapiens with 8 samples.

Results

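Cytochrome P450 genes and the aryl hydrocarbon receptor AHR were followed across a breast cancer progression series of 4 human cell lines, M1 to M4. The members are 9 of the 56632 genes in the deposited count table: CYP4X1, CYP4Z1, CYP1A1, CYP1B1, CYP24A1, CYP27B1, CYP2S1, AHR and its repressor AHRR. They were chosen on their measured levels across M1, M2, M3 and M4, so those levels and the fold changes between lines are given as a description, with no test. All 9 were matched to the table, and 8 passed the filter on low counts, which CYP2S1 did not.

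Poly A+ RNA of 8 libraries was sequenced, with 2 biological replicates from each line. M1 is MCF10A, an immortalized and non-tumorigenic mammary epithelial line. M2 (MCF10AT1k.cl2) consists of MCF10A cells that carry the activated oncogene T24-HRAS and were recovered from xenografts. Carcinomas that arose in M2 xenografts gave M3 (MCF10Ca1h) and M4 (MCF10CA1a.cl1), so each line is a single derivative. All 4 lines grew as acini in Matrigel for 8 days in medium with 2% horse serum, hydrocortisone, cholera toxin and insulin. M1 and M2 received 10 ng/ml EGF while M3 and M4 received none, so line and EGF cannot be told apart where M3 or M4 is compared with M1 or M2.

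P450 enzymes are heme-containing monooxygenases that take electrons from the reductase POR, or from ferredoxin in mitochondria. Members of the CYP4 family mainly hydroxylate fatty acids, and CYP4Z1 is known for expression in the mammary gland and in breast carcinomas. AHR is a ligand-activated transcription factor that pairs with ARNT and induces CYP1A1, CYP1B1 and AHRR, the last of which competes with AHR for ARNT. CYP27B1 makes the hormonal form of vitamin D, CYP24A1 breaks it down, and CYP24A1 is a classical target of the vitamin D receptor VDR.

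The libraries held between 69669970 and 107350344 estimated counts. The epithelial markers KRT5, KRT14, KRT17, TP63, CDH1 and EPCAM summed to between 5407 CPM (the count scaled to a fixed library size after TMM normalization) in M4 replicate 2 and 13556 in M2 replicate 1. Of 6, 2 were called higher in M2 and 3 in M3 against M1, while in M4 1 was called higher and 3 lower. Over all genes, 2.26% were called higher in M2, 8.02% in M3 and 9.48% in M4, with 11.2% lower in M4. Of the other markers matched, ADIPOQ was at 0, PTPRC had 3 counts in M1 replicate 2 and none elsewhere, PDGFRB stayed at or under 46 counts and COL1A1 had 474 to 2113 counts. HRAS stood at 154 and 139 CPM in M1, 160 and 154 CPM in M2, 269 and 327 CPM in M3, and 335 and 352 CPM in M4. The M2 replicates were the closest pair, with a median absolute difference of 0.0693 on the log2 scale, against 0.277 in M1, 0.328 in M3 and 0.232 in M4. A supplementary table of the study places M1 replicate 2 and M2 replicate 1 the other way round from the sample labels. The labels were followed here, and member values that change sign with that exchange are given beside the result. In bulk RNA, fewer cells of a type and less RNA per cell cannot be told apart.

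Promoter sequences at the main start sites show how differently the neighbouring CYP4 genes begin there, beside CYP1A1 as the classical AHR target. RefSeq's promoter table holds a window of 250 bases before and 50 after the start site for 6 of the 9 members. Each window was found once on GRCh37, the build of the counts. Capitals mark GCGTG, the core of the AHR response element, and TATAAA, the TATA box, on either strand, and the motifs do not overlap in these windows.
CYP4X1, chr1:47489091-47489390, plus strand: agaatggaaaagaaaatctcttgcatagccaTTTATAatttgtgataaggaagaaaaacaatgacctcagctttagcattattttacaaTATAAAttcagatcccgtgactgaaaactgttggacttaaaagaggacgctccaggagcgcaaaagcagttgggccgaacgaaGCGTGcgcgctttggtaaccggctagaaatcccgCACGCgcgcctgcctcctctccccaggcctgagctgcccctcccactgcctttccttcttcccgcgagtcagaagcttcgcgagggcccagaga
CYP4Z1, chr1:47532653-47532952, plus strand: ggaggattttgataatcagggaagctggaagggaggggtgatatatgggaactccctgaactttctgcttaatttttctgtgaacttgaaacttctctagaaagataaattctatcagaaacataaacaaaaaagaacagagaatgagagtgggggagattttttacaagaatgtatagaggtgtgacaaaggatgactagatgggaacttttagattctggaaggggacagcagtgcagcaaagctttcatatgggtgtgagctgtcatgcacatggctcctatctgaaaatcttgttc
CYP1A1, chr15:75017820-75018119, minus strand: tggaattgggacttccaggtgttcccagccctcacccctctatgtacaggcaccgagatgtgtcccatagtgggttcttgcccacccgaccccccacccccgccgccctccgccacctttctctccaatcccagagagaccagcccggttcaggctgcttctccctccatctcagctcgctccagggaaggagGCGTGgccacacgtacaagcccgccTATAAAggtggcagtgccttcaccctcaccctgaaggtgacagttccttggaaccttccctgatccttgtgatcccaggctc

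The printed CYP4X1 window held GCGTG 78 bases before the start site and again on the other strand 44 bases before it. It also held TATAAA 161 bases before the start, and on the other strand 219 bases before it. CYP1A1 held GCGTG 57 bases and TATAAA 32 bases before the start. The CYP4Z1 window held neither motif. A second CYP4X1 window, at a start 62305 bases from the main one, also held neither and had 1 CG. The main AHRR start had GCGTG 30 bases before it and AHR had one 38 bases into the transcript, while CYP2S1 had none. Over all 35116 windows of the table, 36.5% held GCGTG and 11.5% held TATAAA, so these matches are frequent. In the printed windows CG dinucleotides numbered 17 in CYP4X1, 10 in CYP1A1 and 0 in CYP4Z1. The median was 14 over all windows, of which 3.96% had none. A match describes letters and not binding.

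CYP4X1 (ENSG00000186377, chr1:47489341-47516423, plus strand, 12 exons in the main transcript) encodes an enzyme that oxidises the endocannabinoid anandamide. It stood at 47.6 and 60.0 CPM in M1, 28.6 and 28.03 for M2, 2.11 and 1.62 for M3 and 1.24 and 1.68 for M4. Both M1 libraries were above both M2 libraries, and those were above all 4 of M3 and M4, whose ranges overlapped. The replicates of each line lay close together, with ratios from 1.02 in M2 to 1.35 in M4. The log2 fold change was -0.93 (SE 0.21) in M2 against M1, -4.85 (SE 0.25) in M3 against M1 and -5.21 (SE 0.25) in M4 against M1. On the linear scale these last values are 28.9-fold and 36.97-fold lower. M4 and M3 differed by -0.36 (SE 0.22). With M1 replicate 2 and M2 replicate 1 exchanged, the M2 value was 0.21 (SE 0.40), while M3 and M4 stayed at -4.35 and -4.71.

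CYP4Z1 (ENSG00000186160, chr1:47532903-47583990, plus strand, 12 exons), a fatty acid hydroxylase, lies next to CYP4X1 and had a wider spread. Its counts were 1373 and 3858 in M1, 148 and 85 for M2, 3 and 20 for M3 and 7 and 3 for M4. In CPM this was 16.6 and 47.1 in M1, 1.45 and 1.21 for M2, 0.0379 and 0.230 for M3 and 0.0617 and 0.0384 for M4. M1 was above M2, M2 was above M3 and M4, and M3 and M4 overlapped near the floor of 3 counts, which is worth 0.0264 to 0.0426 CPM in these libraries. Log2 fold changes were -4.58 (SE 0.68) in M2, -7.85 (SE 0.82) in M3 and -9.23 (SE 0.90) in M4, each against M1. The M4 against M3 value of -1.38 (SE 0.95) turned to 0.43 without M3 replicate 2, which carried 20 of the counts, and M3 against M1 was then -9.65. The value for M2 reversed to 1.42 (SE 1.504) with the exchange of M1 replicate 2 and M2 replicate 1, and M3 and M4 were then at -6.04 and -7.41.

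Other transcripts at CYP4Z1 bear on its counts. The near-identical pseudogene CYP4Z2P had 35 and 79 counts in the M1 libraries, 1 and 5 for M2, and 0 in all 4 libraries of M3 and M4. Against a floor of 3 counts per library it was at least 19.2-fold lower in M3 and at least 21.4-fold lower in M4. It passed the filter on low counts through its M1 libraries alone, so against M1 it could only be called lower. The edgeR calls in M3 and M4 (adjusted p = 0.0173 and 0.0113) therefore add no support. Without M1 replicate 2 neither call held. The adjusted p in M3 also missed 0.05 without M3 replicate 1 or 2, and that in M4 without M4 replicate 1. Reads shared between CYP4Z1 and CYP4Z2P could have been split between them in the estimated counts. On the opposite strand inside CYP4Z1, the pseudogene TUBAP9 had at most 46 counts and CYP4A22-AS1 at most 15. Use of strand in counting is not given in the sources used here, so sense and antisense reads cannot be told apart.

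**Figure D1:**
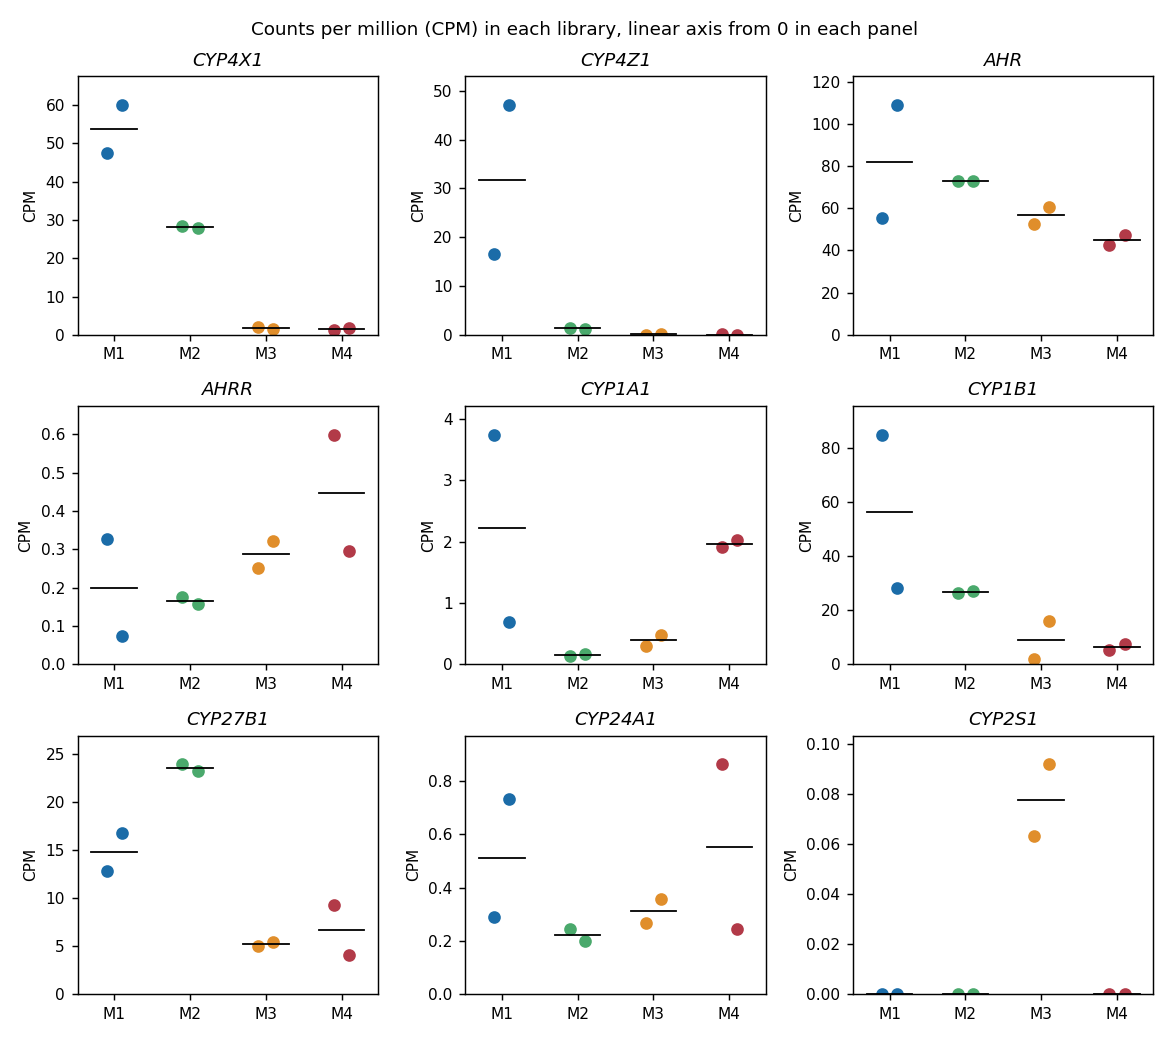
CPM of each member (vertical axis, linear from 0, one scale per panel) in the 2 libraries of M1, M2, M3 and M4 (points), with the mean as a line. CYP4X1 falls from 47.6 and 60.0 CPM in M1 to under 2.2 CPM in M3 and M4. By the sample labels CYP1A1 is lowest in M2, and CYP2S1 has counts only in M3.

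Genes around the CYP4X1 and CYP4Z1 pair were examined within 500 kb on either side. Of 15 protein-coding neighbours, 9 were tested by edgeR's quasi-likelihood F test across all genes, with a call at a Benjamini-Hochberg adjusted p under 0.05 and a log2 change above 1 in size. Of all 18431 genes tested, 2.26% were called higher and 1.11% lower in M2 against M1, 8.02% higher and 5.51% lower in M3 against M1, and 9.48% higher and 11.2% lower in M4 against M1. Between M4 and M3, 3.99% were called higher and 6.3% lower. With M1 replicate 2 and M2 replicate 1 exchanged, the calls in M2 and M3 against M1 of every list gene and neighbour named here were lost, while in M4 against M1 those of CYP2U1, CYP39A1, CYP51A1, ARNT2, TIPARP, SERPINB2, CAMP, SPP1, CYB5B, ALAS1 and EPHX2 held. In a fit of the 2 compared lines alone, the calls lost among these genes were those of CYP4F8, CYB5A and STIL in M2, of ALDH3A1, SERPINB2, TRPV6 and CYP1B1-AS1 in M3 and of CYP3A7, TBXAS1, ARNT2 and TDO2 in M4 against M1, and of CYP2U1, TBXAS1 and PDZK1IP1 in M4 against M3. Among the 9 neighbours, 1 was called higher in M2, 1 higher in M3, and 1 higher and 2 lower in M4, each against M1, and 1 was called lower in M4 against M3. CYP4B1, a further CYP4 enzyme there, stood at 20.1 and 5.39 CPM in M1, 1.68 and 2.22 for M2, 1.98 and 0.172 for M3 and 0.379 and 0.205 for M4. It was called lower in M4 (log2 fold change -5.42, SE 1.195, adjusted p = 0.0140), while in M3 it stood at -3.57 with an adjusted p of 0.0551. The M4 call was lost without either M4 replicate. CYP4A11 and CYP4A22, which flank the pair, had at most 8 counts and were not tested.

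STIL, a centriole duplication factor, rose in all 3 lines. It went from 13.8 and 10.0 CPM in M1 to 25.1 and 25.3 for M2, 37.5 and 33.1 for M3 and 40.2 and 52.8 for M4, with log2 fold changes of 1.08, 1.57 and 1.96 (edgeR adjusted p = 0.0284, 0.00278 and 0.000697). Its M2 call did not hold without M1 replicate 2, M2 replicate 1 or M2 replicate 2. PDZK1IP1, a membrane protein, was lower in M4 against M1 (-3.87, SE 0.99, edgeR adjusted p = 0.0243) and against M3 (-3.58, SE 0.98, adjusted p = 0.0477). The M1 comparison lost its call without M1 replicate 2 or M4 replicate 2, and the M3 comparison without M3 replicate 1 or either M4 replicate. MKNK1, MOB3C, ATPAF1, EFCAB14, CMPK1 and FOXD2 were not called in any comparison. The median over the 9 neighbours was 0.06 in M4 against M1, beside -0.02 over all genes. Along the region, EFCAB14 lies before CYP4B1, and CMPK1 lies after CYP4Z1.

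**Figure D2:**
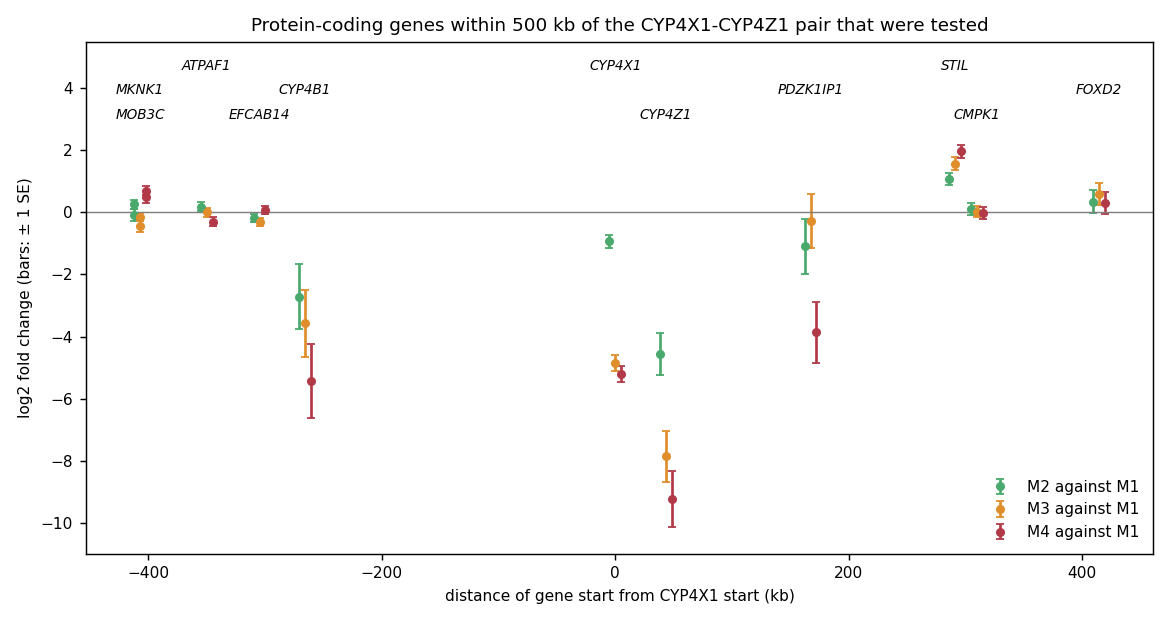
Log2 fold change against M1 (vertical axis, bars ± 1 SE) of CYP4X1, CYP4Z1 and the 9 tested protein-coding neighbours, placed by the distance of their start from that of CYP4X1 in kb (horizontal axis), with M2, M3 and M4 in separate colours. CYP4X1, CYP4Z1 and CYP4B1 lie low in M3 and M4, and STIL lies above 0 in all 3 lines.

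AHR (ENSG00000106546, chr7:16955983-17385776, plus strand, 11 exons in the main transcript) had at least 42.7 CPM in every library. It stood at 55.5 and 108.9 CPM in M1, 72.7 and 73.1 for M2, 52.7 and 60.8 for M3 and 42.7 and 47.5 for M4. The M1 libraries differed 1.96-fold and enclosed both M2 libraries, while both M4 libraries were below every other library. The log2 fold change was -0.17 in M2, -0.53 in M3 and -0.86 in M4 against M1, with an SE of 0.28 each. These values rest on which M1 library is used: without M1 replicate 2 they were 0.40, 0.04 and -0.30, and without M1 replicate 1 -0.58, -0.94 and -1.25. With M1 replicate 2 and M2 replicate 1 exchanged, the M2 value was 0.51. An antisense RNA across the AHR start, ENSG00000237773, had 2 to 30 counts per library and was not called.

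AHRR (ENSG00000063438, chr5:321829-438406, plus strand, 11 exons) was sparse, with counts of 27 and 6 in M1, 18 and 11 for M2, 20 and 28 for M3 and 68 and 23 for M4. In CPM, M1 ran from 0.0732 to 0.326 and M4 from 0.295 to 0.599, and the ranges overlapped. The log2 fold change in M4 against M1 was 1.16 (SE 0.76), and those in M2 and M3 were -0.26 (SE 0.78) and 0.52 (SE 0.77). Without M1 replicate 1 the values in M2, M3 and M4 were 1.17, 1.96 and 2.61, and without M1 replicate 2 they were -0.96, -0.18 and 0.46. Without M4 replicate 1 the M4 value was 0.56. The M1 replicates differed 4.46-fold, so no direction is read for AHRR.

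CYP1A1 (ENSG00000140465, chr15:75011883-75017877, minus strand, 7 exons), which oxidises polycyclic aromatic hydrocarbons, was lowest in M2 by the sample labels. Its counts were 310 and 57 in M1, 14 and 12 for M2, 24 and 42 for M3 and 217 and 158 for M4. These were 3.75 and 0.695 CPM in M1, 0.137 and 0.171 for M2, 0.303 and 0.482 for M3 and 1.91 and 2.02 for M4. The M2 libraries were below all others, M3 lay next, and M4 lay between the M1 replicates, which differed 5.39-fold. Against M1 the log2 fold change was -3.85 (SE 0.80) in M2, -2.49 (SE 0.74) in M3 and -0.17 (SE 0.68) in M4, and it was 2.32 (SE 0.73) in M4 against M3. Without M1 replicate 1 the values against M1 were -2.17, -0.81 and 1.52, and without M1 replicate 2 they were -4.60, -3.24 and -0.93, so the sign in M4 rests on 1 library. With M1 replicate 2 and M2 replicate 1 exchanged, M2 stood at -2.15, M3 at -2.30 and M4 at 0.02, so M2 was then not the lowest.

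CYP1B1 (ENSG00000138061, chr2:38294116-38337044, minus strand, 3 exons), which hydroxylates estradiol and aromatic hydrocarbons, had its highest level in M1 replicate 1. It stood at 84.7 and 27.995 CPM in M1, 26.4 and 26.9 for M2, 2.15 and 15.9 for M3 and 5.19 and 7.66 for M4. That library was the highest for CYP1A1 too, but in M4 CYP1B1 was below both M1 libraries and CYP1A1 was not. The M3 replicates differed 7.41-fold, the widest gap between replicates among the members. The log2 fold change was -1.08 (SE 0.83) in M2, -2.64 (SE 0.88) in M3 and -3.13 (SE 0.90) in M4 against M1, and -0.49 (SE 0.84) in M4 against M3. Without M3 replicate 2 the M4 against M3 value turned to 1.58 (SE 0.69) and M3 against M1 went to -4.71. Without M1 replicate 1 the values in M2 and M3 were -0.07 and -1.62.

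CYP1B1 overlaps transcripts of the opposite strand. CYP1B1-AS1 had 30 and 19 counts in M1 libraries, 33 and 29 for M2, 6 and 5 for M3 and 18 and 10 for M4. Its call in M3 (log2 fold change -2.14, edgeR adjusted p = 0.0477) was lost in 9 of 10 alternative settings. RMDN2, a microtubule-associated gene whose end overlaps that of CYP1B1, was called lower in M4 (-1.51, SE 0.39, edgeR adjusted p = 0.0230), a call lost without any 1 of the M1 or M4 replicates.

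**Figure D3:**
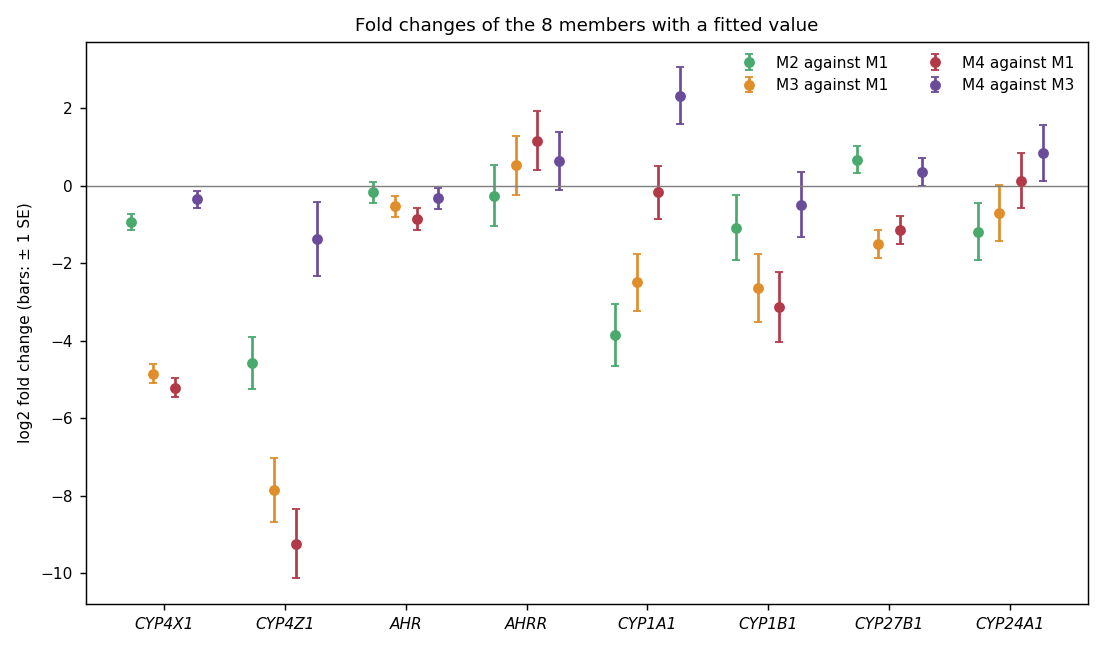
Log2 fold change (vertical axis, bars ± 1 SE from edgeR) of the 8 members with a fitted value, for M2, M3 and M4 against M1 and for M4 against M3 (colours). CYP4X1 and CYP4Z1 reach -5.21 and -9.23 in M4 against M1, and CYP1A1 stands at 2.32 in M4 against M3. CYP1B1 stands at -0.49 there, which turns to 1.58 without M3 replicate 2. The comparisons with M1 share its libraries.

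The AHR pathway list held 22 genes, of which 19 were tested. Against M1, 2 were called higher and 0 lower in M2, 4 higher and 1 lower in M3, and 5 higher and 1 lower in M4. Of all genes tested, 2.26%, 8.02% and 9.48% were called higher in these comparisons and 1.11%, 5.51% and 11.2% lower. The medians over the list were -0.04, -0.18 and -0.06, beside -0.04, -0.02 and -0.02 over all genes. Between M4 and M3 edgeR called 0 of the 19, with 4 at an unadjusted p under 0.05, and DESeq2 called 1. There, 3.99% of all genes were called higher and 6.3% lower. The dimer partner ARNT was not called in any comparison and ranged from 22.7 to 37.5 CPM. In M4 against M3 it stood at -0.54 (SE 0.14, edgeR adjusted p = 0.0407), and only the fold threshold kept it from a call.

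Genes of the list that rose included the known AHR targets TIPARP and SERPINB2. TIPARP, an ADP-ribosyltransferase that represses AHR, went from 55.6 and 49.0 CPM in M1 to 96.4 and 116.5 in M3 and 123.7 and 118.6 in M4, with log2 fold changes of 1.03 and 1.21 (edgeR adjusted p = 0.00371 and 0.00122). Its M3 call was lost without M1 replicate 2 or M3 replicate 2. SERPINB2, a plasminogen activator inhibitor, stood at 1.18 and 0.134 CPM in M1, 3.56 and 12.3 in M3, and 76.4 and 33.3 in M4. It rose by 6.37 (SE 1.07) in M4 (edgeR adjusted p = 0.00496) and by 3.59 (SE 0.96) in M3 (adjusted p = 0.0377), the latter lost without M1 replicate 2 or M3 replicate 2. EREG, an EGF family ligand, went from 0.749 and 0.768 CPM in M1 to 7.20 and 7.86 for M2, 47.8 and 87.6 for M3 and 79.2 and 100.1 for M4. It was called in M2 (3.31, edgeR adjusted p = 0.00605), M3 (6.48, adjusted p = 0.000244) and M4 (6.88, adjusted p = 9.62e-05), and lost its M2 call without either M2 replicate.

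HSP90AA1, a chaperone of unliganded AHR, rose in M2, M3 and M4 by 1.54, 1.42 and 1.18 (edgeR adjusted p = 0.0145, 0.0065 and 0.00836). The M2 call was lost without M1 replicate 1 or either M2 replicate, and the M4 call without M4 replicate 2. ARNT2, a paralog of ARNT, was called higher in M4 (2.38, SE 0.65, adjusted p = 0.0281), with 0.749 and 4.05 CPM in M1 and 11.3 and 13.7 in M4, a call lost without either M4 replicate. Not every known target rose. ALDH3A1, an aldehyde dehydrogenase, was lower in M3 (-3.81, SE 1.10, edgeR adjusted p = 0.0473) and stood at -2.99 in M4 with an adjusted p of 0.0684. Its M1 replicates read 77.9 and 16.3 CPM, and the M3 call was lost without M1 replicate 1 or M3 replicate 1. NQO1, a quinone reductase, was not called and ranged from 138.9 to 791.0 CPM. TDO2, which makes the AHR ligand kynurenine and had at most 26 counts, was the gene called lower in M4 and lies outside the naming rule. It was at least 6.57-fold lower against a floor of 3 counts per library, and the call was lost without M1 replicate 2 or either M4 replicate.

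CYP27B1 (ENSG00000111012, chr12:58156117-58162769, minus strand, 9 exons) was highest in M2. It stood at 12.8 and 16.8 CPM in M1, 23.9 and 23.2 for M2, 4.98 and 5.45 for M3 and 9.30 and 4.05 for M4. Both M2 libraries were above both M1 libraries, those were above M3 and M4, and M3 fell within the range of M4. The log2 fold change was 0.67 (SE 0.35) in M2, -1.504 (SE 0.36) in M3 and -1.15 (SE 0.36) in M4 against M1. The M4 value was -1.86 without M4 replicate 1 and -0.65 without M4 replicate 2. M4 against M3 was 0.36 and turned to -0.36 without M4 replicate 1. With M1 replicate 2 and M2 replicate 1 exchanged, the M2 value was 0.12 (SE 0.45) and the M3 value -1.82. METTL1, which overlaps the CYP27B1 gene model on the same strand, was not called and had 15.4 to 26.3 CPM.

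CYP24A1 (ENSG00000019186, chr20:52769985-52790525, minus strand, 12 exons) had 24 and 60 counts in M1 libraries, 25 and 14 for M2, 21 and 31 for M3 and 98 and 19 for M4. In CPM these were 0.290 and 0.732, 0.246 and 0.199, 0.265 and 0.356, and 0.864 and 0.243. The M4 replicates differed 3.55-fold and enclosed every library except M2 replicate 2. Fold changes on the log2 scale were -1.19 (SE 0.74) in M2, -0.71 (SE 0.73) in M3 and 0.13 (SE 0.71) in M4 against M1. With the exchange of M1 replicate 2 and M2 replicate 1, the M2 value turned to 0.80 and the M3 value to 0.22. Without M1 replicate 2 M2 and M3 stood at -0.37 and 0.10. The M4 value was -1.06 without M4 replicate 1, 0.78 without M4 replicate 2, -0.37 without M1 replicate 1 and 0.94 without M1 replicate 2. M4 against M3 stood at 0.84 and turned to -0.35 without M4 replicate 1.

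The vitamin D list held 18 genes, of which 12 were tested. In M2 against M1 edgeR called 0, with 1 at an unadjusted p under 0.05, and DESeq2 called 1. In M3 2 were called lower and in M4 3, each against M1, and 2 were called lower in M4 against M3. None was called higher in any of the 4 comparisons, beside 2.26%, 8.02%, 9.48% and 3.99% of all genes. The shares of all genes called lower were 1.11%, 5.51%, 11.2% and 6.3%, in the same order. With 12 genes tested, no direction is read from these counts. The list medians were -0.61, -0.31 and -0.53 against M1, beside -0.04, -0.02 and -0.02 over all genes. VDR itself was not called and ranged from 53.5 to 81.9 CPM. CD14, a lipopolysaccharide co-receptor, fell from 24.6 and 14.3 CPM in M1 to 5.62 and 2.40 in M3 and 2.03 and 1.06 in M4 (log2 fold changes -2.28 and -3.65, edgeR adjusted p = 0.0165 and 0.00228). The M3 call was lost without M1 replicate 1 or M3 replicate 2.

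Other genes of this list were lower in M4 against both M1 and M3. CAMP, an antimicrobial peptide, stood at 0.943 and 0.842 CPM in M1, 0.960 and 2.62 in M3, and 0.00881 and 0.0512 in M4, which is 1 and 4 counts. The change was -4.95 (SE 0.88, edgeR adjusted p = 0.00537) against M1 and -5.96 (SE 0.90, adjusted p = 0.00714) against M3, the latter lost without M4 replicate 1. SPP1, the matrix protein osteopontin, stood at 2.88 and 2.76 CPM in M1, 4.31 and 12.8 in M3, and 0.0352 and 0.243 in M4, with -4.40 (SE 0.84, edgeR adjusted p = 0.00715) against M1 and -6.01 (SE 0.89, adjusted p = 0.00691) against M3. TRPV6, a calcium channel, was called lower in M3 (-3.12, SE 0.71, edgeR adjusted p = 0.0201). That call was lost without M1 replicate 2 or either M3 replicate.

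CYP2S1 (ENSG00000167600, chr19:41699115-41713444, plus strand, 9 exons), a P450 of epithelia that AHR ligands can induce, had 5 and 8 counts in M3 and 0 in the other 6 libraries. The M3 counts are 0.0632 and 0.0918 CPM. A count of 0 allows up to 3 counts, or 0.0264 to 0.0426 CPM, for counting error only. No fold was fitted.

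Per kb of the main transcript, the order of the members changed between the lines. In M1 CYP4X1 led at 23.9 ± 3.9 CPM per kb (SD, n = 2), followed by CYP4Z1 at 14.7 ± 10.0, AHR at 13.2 ± 6.1, CYP1B1 at 10.8 ± 7.7 and CYP27B1 at 6.24 ± 1.199, and each of these neighbours overlapped the next in its replicates. CYP1A1 at 0.853, CYP24A1 at 0.156 and AHRR at 0.0353 CPM per kb followed without overlap. In M2 CYP4X1 at 12.5 CPM per kb still stood above AHR at 11.7, CYP27B1 at 9.93 and CYP1B1 at 5.11, with CYP4Z1 after them at 0.616.

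In M3 and M4 AHR led instead, at 9.09 ± 0.92 and 7.23 ± 0.54 CPM per kb (SD, n = 2), above CYP27B1 at 2.20 and 2.81. CYP4X1 came after CYP1B1 in M3 at 0.826 CPM per kb and after CYP1A1 in M4 at 0.647, where it overlapped the 0.756 of CYP1A1. CYP4Z1 stood at 0.0619 CPM per kb in M3, overlapping AHRR, and was the lowest detected member in M4 at 0.0232. Between M1 and M4, 5 of the 9 members had both M1 libraries above both M4 libraries and the other 4 overlapped. These counts were fixed by the choice of members, so nothing is read from them beside the 11.2% of all genes called lower in M4.

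Beyond the members, 50 other P450 genes were listed. Of these, 8 were at 0 in every library, 24 had under 10 counts in each library, 17 reached 100 counts in a library, and 21 were tested. Against M1, 0 were called higher and 1 lower in M2, 0 higher and 2 lower in M3, and 2 higher and 6 lower in M4. In M4 against M3 1 was higher and 3 lower. The lower calls in M2, M3 and M4 against M1 each include CYP4F8, which passed the filter through M1 alone and could only be called lower. The shares of all genes called higher in these 4 comparisons were 2.26%, 8.02%, 9.48% and 3.99%. Those called lower were 1.11%, 5.51%, 11.2% and 6.3%. The medians over the 21 were -0.43 in M2, -0.44 in M3 and -1.17 in M4 against M1, and 0.24 in M4 against M3, beside -0.04, -0.02, -0.02 and -0.02 over all genes. M1 replicate 1 was the highest of the 8 libraries for 10 of the 21. The 8 calls in M4 became 5 without M1 replicate 1, 13 without M1 replicate 2, and 4 without M4 replicate 1 or without M4 replicate 2. Paralogs of the CYP3A, CYP4F and CYP2D families and pseudogene copies of CYP51A1 share sequence, so counts within them are uncertain.

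CYP51A1 had the highest fold change of the list in M4 against M1, and CYP39A1 was lower there. CYP51A1, the lanosterol demethylase of cholesterol synthesis, rose from 90.7 and 58.6 CPM in M1 to 354.3 and 504.7 in M4, through 145.3 and 148.2 in M3. Its log2 fold change was 2.52 (SE 0.25, edgeR adjusted p = 0.000539) against M1 and 1.55 (SE 0.24, adjusted p = 0.00781) against M3. CYP39A1, an oxysterol hydroxylase of bile acid synthesis, fell from 10.1 and 8.81 CPM in M1 to 2.30 and 3.48 in M3 and 0.476 and 0.500 in M4. The change on the log2 scale was -1.71 (SE 0.29, edgeR adjusted p = 0.00721) in M3 and -4.28 (SE 0.33, adjusted p = 0.000245) in M4 against M1, and -2.56 (SE 0.31, adjusted p = 0.0037) in M4 against M3. The M4 calls of both genes held in all 10 alternative settings, against M1 and against M3.

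Among fatty acid hydroxylases, CYP4F11 rose in M4 (2.40, SE 0.52, edgeR adjusted p = 0.0119), from 3.08 and 1.15 CPM in M1 to 7.33 and 15.0, a call lost without M4 replicate 2. CYP4F8, which hydroxylates prostaglandins, had 111 and 24 counts in the M1 libraries, none in M2 and M3, and 1 in all in M4. Against a floor of 3 counts per library it was at least 22.7-fold lower in M2 and at least 22.6-fold lower in M3, and the ratio of summed counts in M1 to M4, scaled for library size, was 157 (95% exact counting interval 27.7 to 6246). This gene passed the filter on low counts through its M1 libraries alone, so against M1 it could only be called lower. Its edgeR calls (adjusted p = 0.0459, 0.0180 and 0.0152) therefore add no support, and all were lost without M1 replicate 1. They were lost, too, without either replicate of the line compared with M1. CYP3A7, a P450 of fetal liver, was called lower in M4 (-4.64, SE 1.47, edgeR adjusted p = 0.0452). It had 105 of its counts in M1 replicate 1 and 1 to 14 in each other library, and the call was lost without that library or either M4 replicate. CYP2U1 and TBXAS1, named after their values were seen to complete the count, were lower in M4 against M1 (-1.88 and -1.41, edgeR adjusted p = 0.00383 and 0.0207) and against M3 (-1.31 and -1.34, adjusted p = 0.0260 and 0.0395). The M3 comparison of both genes lost its call without any 1 of the M3 or M4 replicates, and TBXAS1 in M4 against M1 without M1 replicate 1 or M4 replicate 1.

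**Figure D4:**
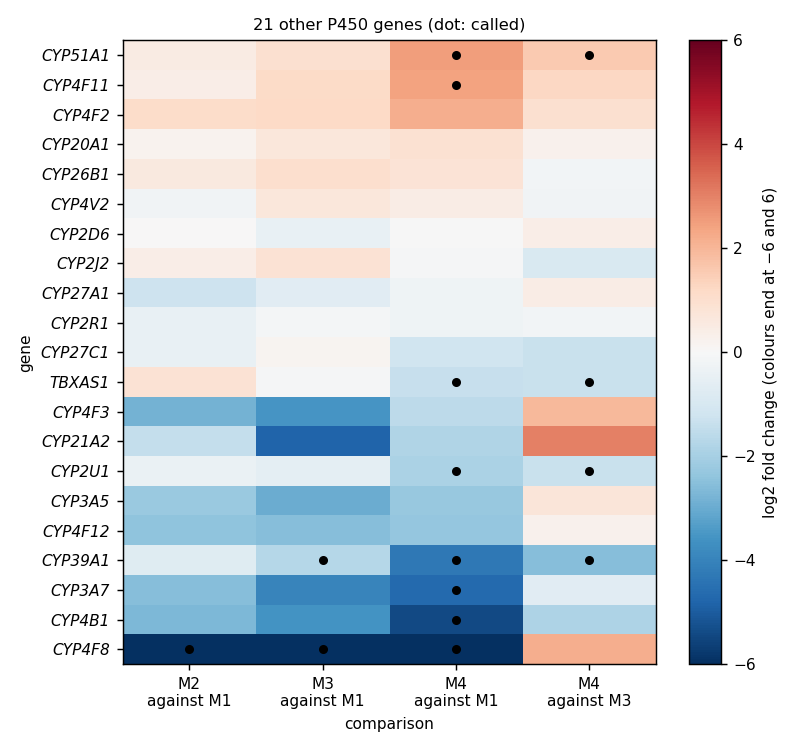
Log2 fold change (colour, red higher and blue lower, ending at -6 and 6) of the 21 tested P450 genes other than the members (rows, ordered by M4 against M1) in 4 comparisons (columns), with a dot where edgeR made a call. CYP51A1 and CYP4F11 carry the 2 higher calls in M4 against M1, and 6 genes carry lower calls there.

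The P450 partner list held 15 genes for electron transfer, heme supply and epoxide hydrolysis, all tested. Against M1, 0 were called higher and 1 lower in M2 and 2 higher and 2 lower in M4. In M3 against M1 edgeR called 0, with 6 at an unadjusted p under 0.05, and DESeq2 called 1. In M4 against M3, 1 was called higher. All genes were called higher at 2.26%, 8.02% and 9.48% in M2, M3 and M4 against M1, and at 3.99% in M4 against M3. They were called lower at 1.11%, 5.51%, 11.2% and 6.3%. No excess is read from the few partner calls. The reductase POR was not called and ranged from 39.7 to 75.8 CPM. The list medians against M1 were -0.07, -0.30 and 0.14, beside -0.04, -0.02 and -0.02 over all genes.

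Cytochrome b5 genes, which pass electrons to several P450 enzymes, differed in direction. CYB5A went from 122.2 and 71.9 CPM in M1 to 38.3 and 37.6 in M2 and 46.1 and 42.3 in M4 (-1.36 and -1.13, edgeR adjusted p = 0.0261 and 0.0122), and both calls were lost without M1 replicate 1 or either replicate of the other line. CYB5B, of the mitochondrial outer membrane, rose from 67.7 and 74.0 CPM in M1 to 168.1 and 174.9 in M4 (1.28, SE 0.12, edgeR adjusted p = 0.000493). ALAS1, the first enzyme of heme synthesis, rose from 33.9 and 25.0 CPM to 61.9 and 60.8 (1.06, SE 0.18, adjusted p = 0.00418), a call lost without M1 replicate 2. EPHX2, the soluble epoxide hydrolase, fell from 16.8 and 12.015 CPM to 4.99 and 2.36 (-1.97, SE 0.36, adjusted p = 0.00591). HMOX1, which degrades heme, was called higher in M4 against M3 (2.63, SE 0.65, edgeR adjusted p = 0.0346), at 33.6 and 22.0 against 3.55 and 5.40 CPM, and that call was lost without any 1 of these 4 libraries.

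**Figure D5:**
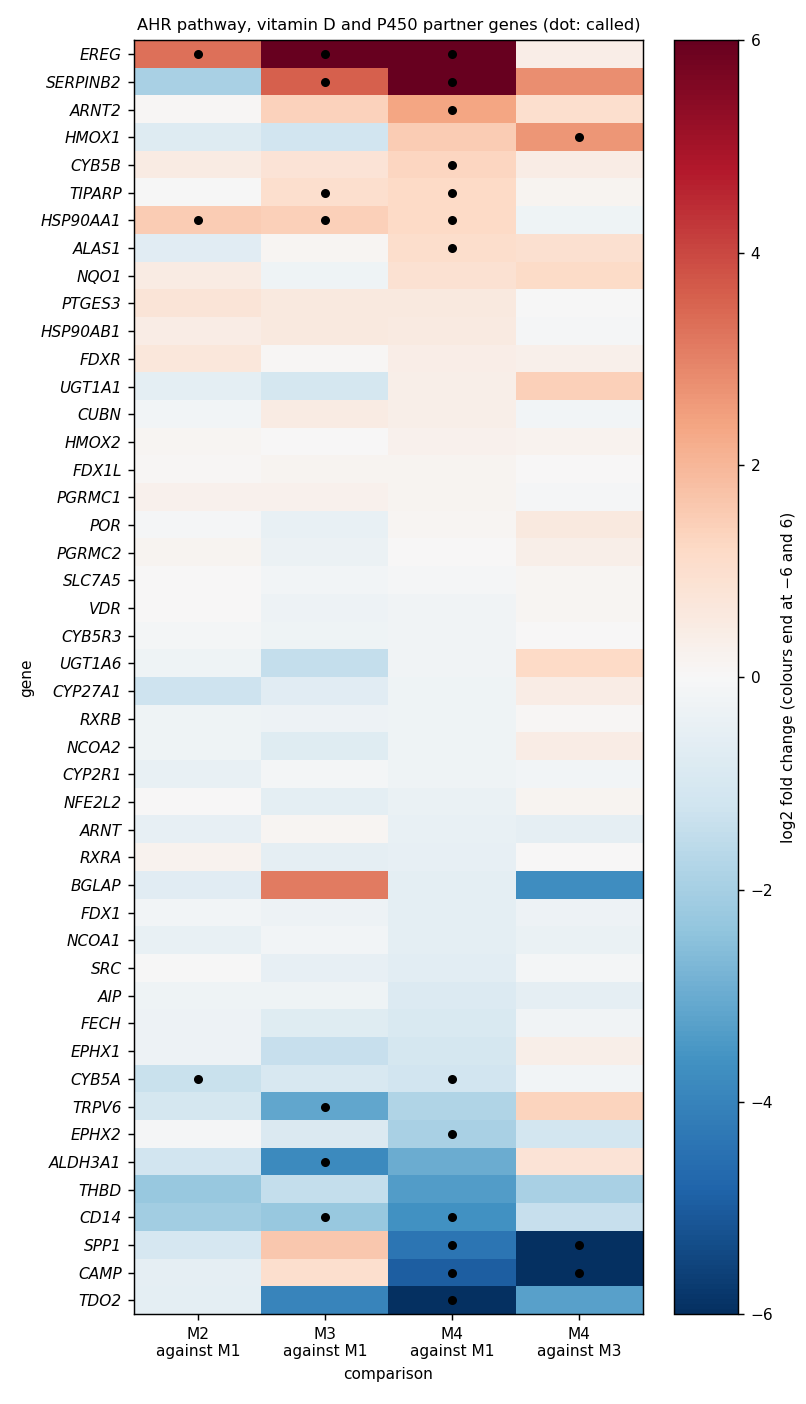
Log2 fold change (colour, red higher and blue lower, ending at -6 and 6) of the tested AHR pathway, vitamin D and P450 partner genes (rows, ordered by M4 against M1) in 4 comparisons (columns), with a dot where edgeR made a call. EREG and SERPINB2 stand at the top with 6.88 and 6.37 in M4 against M1, and SPP1, CAMP and TDO2 at the bottom.

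For the 6 members with at least 100 counts in a library, the genes most alike were found by Pearson's r of log2 CPM (prior count 2) over the 8 libraries, among 14308 genes. The libraries are 4 pairs of replicates, so r is a description with no test. CYP4X1 was most like BMP5 (r = 0.997), SARAF (0.991) and ZNF606 (0.990). CYP4Z1 was most like MTERF4 (0.990), DGCR2 (0.989) and SIDT2 (0.985). SIDT2, a lysosomal membrane protein, stood at log2 fold changes of -1.32 in M3 and -1.73 in M4 against M1. The likeness to a member fixes the direction of such genes, so no test is given for them.

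CYP1A1 was most like EPS15 (r = 0.976), CHFR (0.973) and TERF2IP (0.972). CYP1B1 was most like IL18R1 (0.979), PITPNA (0.975) and the transcription factor CEBPA (0.965), which stood at -2.37 in M3 and -2.24 in M4 against M1. CYP27B1 was most like HNRNPH2 (0.989), PRANCR (0.974) and SPON2 (0.974), and AHR was most like SULF2 (0.989), KANSL2 (0.976) and UTP14A (0.966).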

How the data were processed

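RNA-seq of M1 to M4, with 2 biological replicates each, was taken from a table with 1 value per gene. Before they were deposited, these estimated counts (RSEM expected counts) were made by the authors: per the labels and the paper's methods, they trimmed paired-end reads with Trimmomatic, aligned them to hg19 (GRCh37) with STAR, counted them with RSEM, and used Picard (versions and strand use are not given in the sources used here). The counts are not normalized, and 32.3% of those above 0 are not whole, so they were rounded. Every column was mapped to a sample by its label.

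Lines were compared with edgeR 4.0.16 under R 4.3.3, by a robust quasi-likelihood F test on all 8 libraries after TMM scaling and filterByExpr, adjusted by Benjamini-Hochberg over 18431 genes, with a call at an adjusted p under 0.05 and a log2 fold change above 1 in size. Each SE was derived from the F value and the fold change. The p-values set each difference between lines against the spread between replicates, estimated over all 8 libraries together. The fit was tested on simulated data for M4 against M1, with 200 changed genes among 17857. It called 135 of these in the right direction and 6 unchanged genes, so a gene that is not called may still differ. Levels are CPM on TMM-scaled libraries, per kb of the main transcript of GENCODE on GRCh37 (94.4% of genes matched) where genes are compared. Of the list genes 1, PECAM1, was unmatched. Floors and intervals cover counting error only.

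The members and lists were chosen with earlier results of these data known. The genes named are the members, ARNT, VDR and POR, up to 6 genes per list with the largest change among those called with at least 100 counts in a library, the 3 genes most alike each member, neighbours, copies and antisense genes. Alternatives were DESeq2 1.42.0 and its size factors, no filter, no fold threshold, a fit of the 2 lines alone, a replicate block, the exchange of 2 libraries, and leaving out each replicate. Python 3.11.15 with pandas 2.3.3, scipy 1.17.1 and matplotlib 3.10.9 did the rest.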

Additional observations from a re-analysis of the deposited data

How the results depend on the processing

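Of 319 member fold changes under the alternatives, 306 moved by no more than the spread between replicates. With 2 libraries a line, leaving 1 out passes this measure almost by construction, so stability is not read from the 306. They include CYP1A1 in M4 against M1, which went from -0.17 to 1.52 without M1 replicate 1. CYP1B1 in M4 against M3, which went from -0.49 to 1.58 without M3 replicate 2, is among them too. Counted apart from that, 18 took the other sign, 6 with M1 replicate 2 and M2 replicate 1 exchanged and 12 with 1 replicate left out, over 14 of the 32 fold changes. With the exchange CYP4Z1 in M2 against M1 went to 1.42. The size factors of DESeq2 left all 16 list counts within 1.5 times. Counts below are of calls, in the order M2, M3 and M4 against M1 and M4 against M3. The other P450 list had 1, 2, 8 and 4 calls, the AHR pathway 2, 5, 6 and 0, the vitamin D list 0, 2, 3 and 2, and the P450 partners 1, 0, 4 and 1.

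DESeq2's own test gave 2 and 9 other P450 calls in M2 and M3, 1 AHR pathway call in M4 against M3, 1, 4, 5 and 4 vitamin D calls, and 1 and 2 partner calls in M3 against M1 and M4 against M3. Without the filter, other P450 calls were 7, 10, 14 and 8, AHR pathway calls 4 in M2, 8 in M3 and 3 in M4 against M3, vitamin D calls 2, 4, 5 and 5, and partner calls 2 in M3 against M1 and 2 in M4 against M3. Without the fold threshold there was 1 AHR pathway call in M4 against M3 and there were 3 partner calls in M3 against M1 and 3 in M4 against M3. The fit of the 2 lines alone gave 0 and 2 other P450 calls in M2 against M1 and M4 against M3, 1 vitamin D call in M2 and 1 in M3, and 0 partner calls in M2. With the libraries exchanged, calls in M2 and M3 were 0 for the other P450 and AHR pathway lists, M4 kept 3 in each, M4 against M3 had 2 other P450 calls, and M3 had 0 vitamin D and M2 0 partner calls. Over all genes M2 against M1 then had 0 calls by edgeR (315 genes at an unadjusted p under 0.05, and 1325 calls by DESeq2 on the labelled libraries), and 219 were left in M3 and 1559 in M4.

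Replicate numbers did not pair the libraries in the comparisons with M1. The correlation of replicate differences between lines was -0.0405 for M2, 0.0492 for M3 and -0.0193 for M4. In M4 against M3 it was 0.18, a weak positive correlation. With the replicate block there were 3 AHR pathway calls in M3, 1 vitamin D call in M2 and 2 partner calls in M4 against M3. The named calls of ALDH3A1, SERPINB2 and CYP1B1-AS1 in M3 and CYP3A7 in M4 against M1, and of TBXAS1 and PDZK1IP1 in M4 against M3, were lost with it, and the remaining list counts stayed within 1.5 times. Leaving out each replicate in turn gave 0 to 4, 1 to 8, 4 to 13 and 2 to 3 other P450 calls, 0 to 3, 3 to 5, 4 to 6 and 0 to 1 AHR pathway calls, 0 to 1, 0 to 1, 3 to 4 and 1 to 3 vitamin D calls, and 0 to 2, 0 to 2, 3 to 5 and 0 to 1 partner calls. A line left with 1 library was taken to vary like the others. The cause of these differences was not tested. With 2 libraries a line and CYP2S1, AHRR and CYP24A1 at under 100 counts, depth limits what can be said of these members.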
